A study of Mus musculus with 18 samples.

Results

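The genes described are 8 Toll-like receptors, *Tlr1*, *Tlr2*, *Tlr4*, *Tlr5*, *Tlr6*, *Tlr7*, *Tlr9* and *Tlr13*, together with the LPS co-receptors *Ly96* and *Cd14*. They were taken by name from the count files, and all 10 were found among the 55029 genes listed in the files with *E. coli* and IFN-γ and the 54232 listed in the files with IL-4. The cells were eosinophils from the peritoneal cavity of C57BL/6 mice with an *Il5* transgene (line NJ.1638), so the animals made eosinophils under excess IL-5. T and B cells were depleted with beads against Thy1.2 and B220 to a purity above 95%, and the study describes the remaining cells as mainly lymphocytes. Cells were cultured for 18 h and RNA was counted in 18 libraries, 3 in each of 6 groups.

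The first set of libraries, whose files share a layout, held eosinophils that were left unstimulated (a to c) or received heat-inactivated *E. coli*, IFN-γ at 50 ng/ml, or these stimuli together. The IL-4 set held cells left unstimulated (d to f) or given IL-4 at 100 ng/ml. Every group had the same transgene and strain. A library had 1523808 to 2734041 counts on genes in the first set, and 3625036 to 6482289 in the set with IL-4. The study calls its replicates biological, and the labels do not say whether the 3 libraries of a group came from separate animals, so the p-values measure only the spread between these libraries.

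Toll-like receptors are membrane proteins that bind conserved parts of microbes and signal through the adaptors MyD88 and TRIF to NF-κB and interferon regulatory factors. Receptors for lipids and proteins of the bacterial surface sit on the plasma membrane, whereas those for nucleic acids sit in endosomes. Eosinophils carry several of these receptors, and IFN-γ and bacterial products are known to alter their expression in myeloid cells.

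Levels are normalized CPM, the counts of a gene scaled to a common library size by TMM, which evens out library composition. A count of 0 allows up to 3 counts, which corresponds to 0.996 to 2.18 normalized CPM for the first set and 0.495 to 0.830 for the IL-4 set, for counting error only. A gene was called at an adjusted p below 0.05 in the quasi-likelihood test of edgeR, a model of counts, adjusted by Benjamini-Hochberg over every gene tested. Log2 fold changes are given ± the standard error (SE). Of the 10 genes, 8 passed the filter on low counts in each set. *Tlr5*, the receptor for flagellin, and *Tlr9*, the receptor for CpG DNA, had 0 counts in all 18 libraries, so their levels are under these limits and no fold change is given.

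Of the 8 tested genes, 2 rose and 1 fell with *E. coli*, where 13.5% of all 9883 tested genes were called higher and 16.7% lower. IFN-γ raised 3 and lowered 1, against 15.6% and 16.0% of all genes. With both, 3 rose and 1 fell, against 23.9% and 25.2%. In the IL-4 set 3 fell, against 4.35% of the 10556 tested genes called lower and 5.97% called higher. In this comparison edgeR called 0 of the 8 genes higher, 0 had a higher level at an unadjusted p under 0.05, and DESeq2 called 0 higher. The median log2 fold change of the 8 genes was -0.18 for *E. coli*, 0.26 for IFN-γ, 0.06 for both and -0.68 for IL-4, and over all tested genes it was -0.02, -0.03, -0.04 and 0.00056. The comparisons of *E. coli*, IFN-γ and both share the unstimulated libraries a to c. In bulk RNA, fewer cells of a type and less RNA per cell cannot be told apart.

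Each stimulus was also added to the other. Both stimuli against IFN-γ alone showed 2 of the 8 genes higher and 2 lower, where 6.26% of all tested genes were called higher and 5.98% lower. Both against *E. coli* alone showed 3 higher and 1 lower, against 17.5% and 15.3%. The interaction, the effect of *E. coli* in cells with IFN-γ minus that in cells without it on the log2 scale, was called higher for 1 and lower for 1 gene, against 2.58% and 2.04%. In the first set each count lies less than 2 genes from what the share of all genes gives for 8 genes, and with IL-4 the count of falls lies further above it. That IL-4 count of 3 was 1 without IL-4 library 2 or 3, and 2 by DESeq2.

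**Figure D1:**
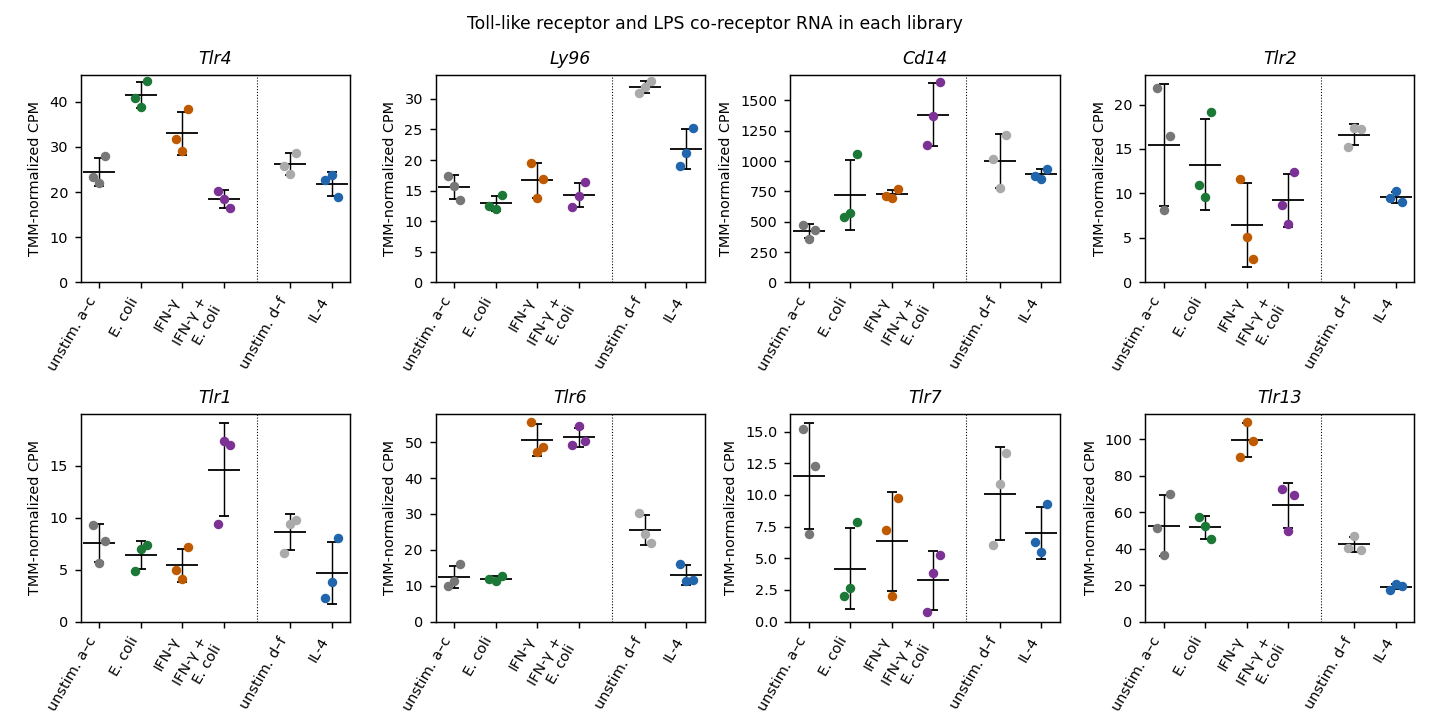
Normalized CPM (vertical axes, from 0) of the 8 receptor and co-receptor genes with counts, for each of the 6 groups on the horizontal axes. Points are libraries, horizontal lines and bars are the mean ± SD of 3 libraries, and the dotted line separates the sets, which were normalized apart. *Tlr6* lies at 47.3 or more in every library with IFN-γ and at 15.99 or less in those with *E. coli* alone or unstimulated libraries a to c.

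*Tlr4* encodes the signalling receptor for LPS of Gram-negative bacteria (ENSMUSG00000039005, chr4:66827584-66930284, plus strand). Without stimulus (a to c) its level was 23.3, 22.0 and 27.9 normalized CPM, and it was 40.9, 38.9 and 44.6 given *E. coli*. IFN-γ libraries had 31.7, 29.0 and 38.3, and those with both stimuli 20.3, 18.5 and 16.4. Every *E. coli* library lay above every other library of the set, and every library with both stimuli lay below every other. *Tlr4* rose with *E. coli* by a log2 fold change of 0.75 ± 0.16 (SE), which is 1.68-fold (edgeR with Benjamini-Hochberg, adjusted p = 0.00140). Against unstimulated cells the log2 difference was 0.42 with IFN-γ (edgeR with Benjamini-Hochberg, adjusted p = 0.0703) and -0.42 with both stimuli (adjusted p = 0.0745), and neither was called. The IFN-γ difference was called without unstimulated library c (0.53, edgeR adjusted p = 0.0467) or IFN-γ library 2 (0.54, edgeR adjusted p = 0.0480). With IL-4 *Tlr4* was 22.7, 23.8 and 18.8, all just below the 25.7, 24.1 and 28.8 without stimulus (d to f), and it was not called (edgeR with Benjamini-Hochberg, adjusted p = 0.381).

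Adding *E. coli* raised *Tlr4* in unstimulated eosinophils and lowered it in cells with IFN-γ, where it fell by 0.84 on the log2 scale (edgeR with Benjamini-Hochberg, adjusted p = 0.00587). Against *E. coli* alone it fell by 1.17 with both stimuli (edgeR with Benjamini-Hochberg, adjusted p = 4.35e-05). The interaction was -1.58 ± 0.25 (edgeR with Benjamini-Hochberg, adjusted p = 0.000792). It was called whichever of the 12 libraries was left out.

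*Ly96* encodes MD-2, which binds LPS on the outer part of TLR4 (ENSMUSG00000025779, chr1:16688051-16709611, plus strand). Its level was 17.4, 15.7 and 13.5 normalized CPM without stimulus (a to c) and 11.95 to 19.5 over the 9 stimulated libraries of the first set. The groups overlapped, and edgeR called *Ly96* in none of the 6 comparisons of this set. Cells with IL-4 had 18.9, 21.2 and 25.3, and those without stimulus (d to f) 31.0, 32.0 and 32.9. All IL-4 libraries lay below all unstimulated ones, with a log2 difference of -0.56 ± 0.17 (edgeR with Benjamini-Hochberg, adjusted p = 0.0596), which was not called.

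*Cd14* encodes a surface and secreted protein that hands LPS to MD-2 and TLR4 (ENSMUSG00000051439, chr18:36725067-36726798, minus strand). Its level was 472, 358 and 432 normalized CPM without stimulus (a to c), 539, 569 and 1056 given *E. coli*, and 714, 698 and 768 given IFN-γ. Both stimuli gave 1132, 1371 and 1650. Each stimulated library lay above the unstimulated ones, and those with both stimuli lay above the rest. The third *E. coli* library stood far from the other 2 of its group.

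*Cd14* rose with *E. coli* by a log2 fold change of 0.77 ± 0.20 (edgeR with Benjamini-Hochberg, adjusted p = 0.00656), which fell short of the threshold without the third *E. coli* library (0.40, adjusted p = 0.0522). It rose with IFN-γ by 0.78 ± 0.20 (edgeR with Benjamini-Hochberg, adjusted p = 0.00599), and with both stimuli by 1.72 ± 0.20, or 3.28-fold (adjusted p = 1.36e-06). The level with both stimuli was higher than with IFN-γ alone by 0.93 on the log2 scale (edgeR, adjusted p = 0.00427) and than with *E. coli* alone by 0.94 (edgeR, adjusted p = 0.00122). The interaction was 0.16 ± 0.28 on the log2 scale (edgeR with Benjamini-Hochberg, adjusted p = 0.846). With IL-4 the level was 879.7, 856 and 939, within the 775 to 1218 without stimulus (d to f), and *Cd14* was not called. Its log2 difference was -0.17 (edgeR with Benjamini-Hochberg, adjusted p = 0.539). Without unstimulated library e *Cd14* was called lower, at -0.33 (edgeR, adjusted p = 0.0379), and without library f the difference was -0.0098.

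No count of the first set exceeded 4096, the number of molecular identifiers that 6 bases allow, and *Cd14* counts reached 2519. With counts corrected for such a ceiling, an alternative chosen after the data were seen, the log2 fold change of *Cd14* was 0.98 for *E. coli*, 0.86 for IFN-γ and 2.09 for both stimuli, and each was called by edgeR.

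*Tlr2* encodes the receptor for bacterial lipopeptides, which pairs with TLR1 or TLR6 (ENSMUSG00000027995, chr3:83836272-83841767, minus strand). Its level was 21.8, 8.18 and 16.4 normalized CPM without stimulus (a to c) and 11.7, 5.09 and 2.60 given IFN-γ. The groups overlapped in 1 library each, the lowest unstimulated and the highest IFN-γ library. IFN-γ lowered *Tlr2*, which fell by 1.29 on the log2 scale (SE 0.43, edgeR with Benjamini-Hochberg, adjusted p = 0.0287). This call was lost without unstimulated library a or c or IFN-γ library 2 or 3, with an adjusted p of up to 0.173 by edgeR, and DESeq2 gave an adjusted p of 0.0575. The log2 fold change was -1.997 without IFN-γ library 1 and -0.95 without IFN-γ library 3.

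In the other stimulated groups of the set, *Tlr2* was 10.9, 9.63 and 19.1 with *E. coli* and 8.70, 6.53 and 12.4 with both stimuli, and was not called. The difference for both stimuli (-0.82) was called without unstimulated library b (-1.05, edgeR adjusted p = 0.0393). Over the libraries left out in turn it was -1.09 to -0.49, the latter without unstimulated library a. In the IL-4 set it was 9.47, 10.3 and 9.03 with IL-4, and 15.2, 17.3 and 17.3 without stimulus (d to f). All IL-4 libraries were below all unstimulated ones. *Tlr2* fell with IL-4 by 0.79 on the log2 scale (SE 0.20, edgeR with Benjamini-Hochberg, adjusted p = 0.0328). The call was lost without unstimulated library f or any of the IL-4 libraries, and over the 6 libraries left out in turn the adjusted p was 0.0375 to 0.128 by edgeR. DESeq2 gave an adjusted p of 0.0706.

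*Tlr1* encodes the partner of TLR2 for triacylated lipopeptides (ENSMUSG00000044827, chr5:64924679-64933563, minus strand). Its level was 9.25, 5.66 and 7.79 normalized CPM without stimulus (a to c), 4.86, 6.97 and 7.35 given *E. coli*, and 5.002, 4.07 and 7.14 given IFN-γ. Both stimuli gave 9.43, 17.4 and 17.0. The first 3 of these groups overlapped, and the libraries with both stimuli lay above all others, the first of them by a narrow margin. *Tlr1* rose with both stimuli by a log2 fold change of 0.92 ± 0.30 over unstimulated cells (edgeR with Benjamini-Hochberg, adjusted p = 0.0170). The call was lost without library 2 (0.78) or 3 (0.84) of both stimuli, with an adjusted p of 0.0896 and 0.0550, and by DESeq2 (adjusted p = 0.0515). *Tlr1* was also higher than with IFN-γ alone by 1.47 (edgeR, adjusted p = 0.00727) and than with *E. coli* alone by 1.21 (edgeR, adjusted p = 0.00535).

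For *Tlr1* the interaction of the stimuli was 1.76 ± 0.47 on the log2 scale (edgeR with Benjamini-Hochberg, adjusted p = 0.0370), opposite in sign to that of *Tlr4*. The call held without unstimulated library b, *E. coli* library 3, IFN-γ library 3 or library 1 of both stimuli. Without any other library it was lost, with an adjusted p of up to 0.136 by edgeR, as it was by DESeq2 (adjusted p = 0.0991). Cells with IL-4 had *Tlr1* at 2.27, 3.81 and 8.002, and those without stimulus (d to f) at 6.64, 9.40 and 9.77. These groups overlapped, with a log2 difference of -0.93 ± 0.42 (edgeR with Benjamini-Hochberg, adjusted p = 0.198). This was -1.51 without IL-4 library 3 and -0.58 without IL-4 library 1.

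*Tlr6* encodes the partner of TLR2 for diacylated lipopeptides and lies next to *Tlr1* (ENSMUSG00000051498, chr5:64952031-64960097, minus strand). Its level was 9.99, 11.3 and 15.99 normalized CPM without stimulus (a to c), and 11.7, 11.3 and 12.7 given *E. coli*. IFN-γ gave 55.6, 47.3 and 48.7, and both stimuli 49.3, 54.4 and 50.4. The 6 libraries with IFN-γ formed a high group apart from the 6 without it, and the groups with and without *E. coli* overlapped within each.

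*Tlr6* rose with IFN-γ by a log2 fold change of 2.01 ± 0.18, or 4.03-fold (edgeR with Benjamini-Hochberg, adjusted p = 1.12e-07). Given both stimuli it rose by 2.04 ± 0.18 over unstimulated cells (edgeR with Benjamini-Hochberg, adjusted p = 3.85e-08) and by 2.11 over *E. coli* alone (adjusted p = 3.90e-08). Adding *E. coli* to IFN-γ gave a log2 difference of 0.03 ± 0.16 (edgeR with Benjamini-Hochberg, adjusted p = 0.945). In the IL-4 set *Tlr6* was 16.1, 11.3 and 11.6 with IL-4, against 30.1, 24.4 and 22.0 without stimulus (d to f), with no overlap. It fell with IL-4 by 0.96 on the log2 scale (SE 0.21, edgeR with Benjamini-Hochberg, adjusted p = 0.0178), a call lost without IL-4 library 2 or 3 (edgeR, adjusted p up to 0.0910, log2 fold change -1.14 to -0.84 over the libraries left out in turn).

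*Tlr7* encodes an endosomal receptor for single-stranded RNA (ENSMUSG00000044583, chrX:167304929-167330558, minus strand). Its level was 15.2, 6.92 and 12.3 normalized CPM without stimulus (a to c), 2.03, 2.66 and 7.84 given *E. coli*, and 7.23, 2.04 and 9.74 given IFN-γ. Both stimuli gave 0.725, 3.81 and 5.24, the lowest of these being 1 count. *E. coli* and unstimulated libraries overlapped, whereas all with both stimuli lay below all unstimulated ones. *Tlr7* fell by 1.58 on the log2 scale with *E. coli* (SE 0.49, edgeR with Benjamini-Hochberg, adjusted p = 0.0205) and by 1.81 with both stimuli (SE 0.56, adjusted p = 0.0125).

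The call of *Tlr7* with *E. coli* was lost without unstimulated library a or c or *E. coli* library 1 or 2, at an adjusted p of up to 0.118 by edgeR, and DESeq2 gave an adjusted p of 0.0703. Its log2 fold change with single libraries omitted was -2.29 (without *E. coli* library 3) to -1.26 (without *E. coli* library 1). For both stimuli the call was lost without unstimulated library a or the first library with both stimuli, at an adjusted p of up to 0.0635, and the log2 fold change was -2.23 to -1.37. With IFN-γ alone the log2 difference was -0.95 ± 0.49 (edgeR with Benjamini-Hochberg, adjusted p = 0.1496). It was -1.37 without IFN-γ library 3 and -0.46 without IFN-γ library 2. With IL-4 *Tlr7* was 6.25, 5.46 and 9.29, which overlapped with 6.08, 10.9 and 13.3 without stimulus (d to f), and it was not called (edgeR, adjusted p = 0.320).

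*Tlr13* encodes an endosomal receptor for a bacterial 23S ribosomal RNA sequence (ENSMUSG00000033777, chrX:106143204-106160493, plus strand). Its level was 51.4, 36.5 and 70.1 normalized CPM without stimulus (a to c), 57.5, 52.5 and 45.1 given *E. coli*, and 90.6, 109.4 and 99.4 given IFN-γ. Both stimuli gave 72.5, 49.5 and 69.4. IFN-γ libraries lay above all others of the set, and the remaining 3 groups overlapped. *Tlr13* rose with IFN-γ by a log2 fold change of 0.90 ± 0.19 (edgeR with Benjamini-Hochberg, adjusted p = 0.00108). It was lower with both stimuli than with IFN-γ alone by a log2 difference of -0.66 (edgeR with Benjamini-Hochberg, adjusted p = 0.0286), a call lost without IFN-γ library 2 or 3 or the second library with both stimuli (edgeR, -0.76 to -0.50 over the libraries left out in turn, adjusted p up to 0.159). Against unstimulated cells *Tlr13* with both stimuli differed by 0.24 and was called only without unstimulated library c (0.50, edgeR adjusted p = 0.0452). Without unstimulated library b the log2 difference was 0.080.

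With IL-4 *Tlr13* was 17.6, 20.7 and 19.4, against 40.7, 47.2 and 39.5 without stimulus (d to f). The groups lay far apart in relation to their spread. *Tlr13* fell with IL-4 by 1.14 on the log2 scale (SE 0.16, edgeR with Benjamini-Hochberg, adjusted p = 0.00164), and was called without any 1 of the 6 libraries, with an adjusted p of 0.000632 to 0.0184.

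**Figure D2:**
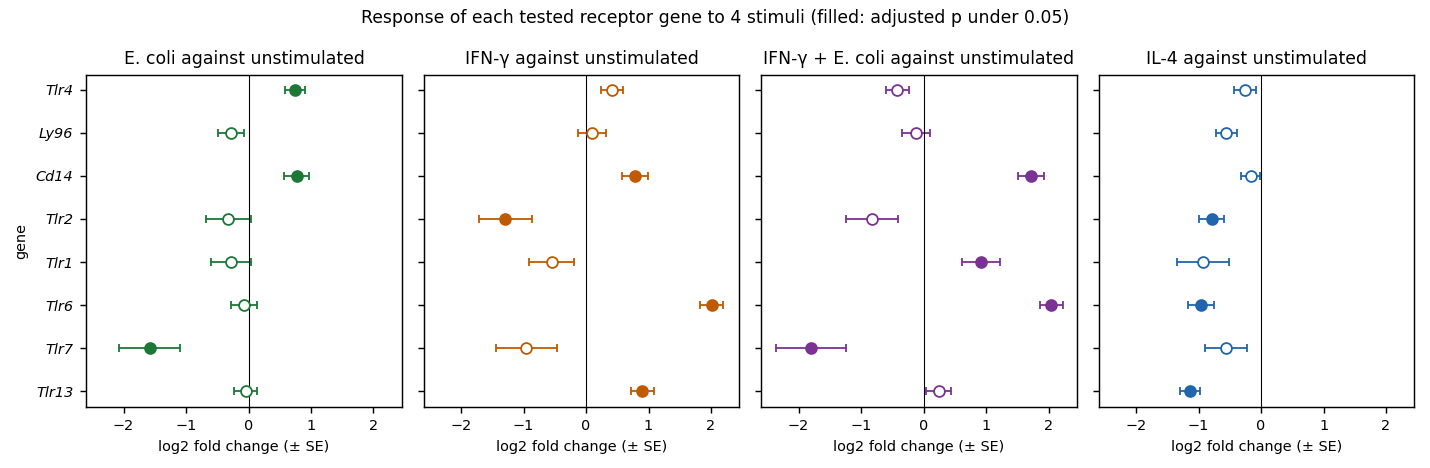
Log2 fold change (horizontal axes) ± SE of the 8 tested genes (vertical axes) with each of the 4 stimuli against the unstimulated libraries of the same set. Filled points were called by edgeR at an adjusted p under 0.05 and open points were not. *Tlr6* stands at 2.01 with IFN-γ and at -0.96 with IL-4.

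Divided by the length of all exons, levels without stimulus (a to c) were highest for *Cd14* at 242.9 ± 33.3 normalized CPM per kb (SD, n = 3), followed by *Ly96* at 15.2 ± 1.90 and *Tlr13* at 12.2 ± 3.91. *Tlr2* stood at 5.13 ± 2.28, *Tlr4* at 4.39 ± 0.554, *Tlr6* at 3.34 ± 0.846, *Tlr7* at 2.81 ± 1.03 and *Tlr1* at 2.26 ± 0.539. *Ly96* and *Tlr13* did not differ beyond their SDs, nor did neighbours in the order from *Tlr2* to *Tlr1*. With IFN-γ *Tlr6* stood at 13.6 ± 1.18 and *Tlr13* at 23.2 ± 2.19. In the IL-4 set the unstimulated order was *Cd14* (579 ± 127.8), *Ly96* (31.3 ± 0.941), *Tlr13* (9.86 ± 0.964), *Tlr6* (6.85 ± 1.12), *Tlr2* (5.51 ± 0.402), *Tlr4* (4.71 ± 0.427), *Tlr1* (2.57 ± 0.512) and *Tlr7* (2.48 ± 0.905). Of these, *Tlr6* and *Tlr2*, *Tlr2* and *Tlr4*, and *Tlr1* and *Tlr7* did not differ beyond their SDs. Reads of CEL-Seq2, named in the methods, come from the 3′ end of a transcript, and dividing by length is not the usual scale for them. The order differs without this division, though *Cd14* is highest in each set. In a to c *Tlr13* (52.7 normalized CPM) and *Tlr4* (24.4) then stood above *Ly96* (15.6). In d to f *Tlr13* (42.4) stood above *Ly96* (32.0), and *Tlr4* (26.2) below it. No gene outside the 10 had a transcript with 95% identity over 200 bases or more, and no exon of another annotated gene overlapped an exon of the 10. Genes lying within introns were not counted.

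The genes with the most similar pattern to each receptor over the 12 libraries of the first set, by Pearson r of log2 CPM among tested genes with a mean of at least 5 CPM, are given as a description. For *Tlr6* they were *Tgm2* (r = 0.992), *Cxcl9* (0.992) and *Gbp4* (0.988). For *Cd14* they were *Sod2* (0.990), *Clec4e* (0.989) and *Tnfrsf23* (0.987), and for *Tlr4* *Smyd5* (0.941), *Tmem51* (0.906) and *Zfp568* (0.896). For *Tlr7* they were *Vsig4* (0.877), *Smarcal1* (0.867) and *Fcgr1* (0.865), of which *Vsig4* and *Fcgr1* are on the list of macrophage markers. For *Tlr13* they were *Ap4m1* (0.896), *Gm47022* (0.896) and *Usf3* (0.890), for *Tlr2* *Dnajc4* (0.888), *Gm21994* (0.860) and *Zfp385a* (0.843), for *Tlr1* *Ccdc130* (0.881), *Cep135* (0.837) and *Phf13* (0.821), and for *Ly96* *Rpl37* (0.840), *Cmklr1* (0.826) and *Cd1d1* (0.822). The 12 libraries fall into 4 groups, so the values also hold the differences between groups.

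Of 4 further Toll-like receptors, *Tlr3*, *Tlr8*, *Tlr11* and *Tlr12*, only *Tlr3* (a receptor for double-stranded RNA) passed the filter, and it was not called with any of the 4 stimuli. The counts of the other lists of the pathway are to be read against the shares of all tested genes called higher and lower, which were 13.5% and 16.7% with *E. coli*, 15.6% and 16.0% with IFN-γ, 23.9% and 25.2% with both, and 5.97% and 4.35% with IL-4. Of 11 tested accessory proteins, 1 rose and 5 fell with *E. coli*, 3 rose and 2 fell with IFN-γ, 1 rose and 5 fell with both, and 3 fell with IL-4 (median log2 fold change -0.41, -0.26, -0.40 and -0.12 in that order). *Cd180*, which encodes a receptor relative of TLR4, fell by 2.35 on the log2 scale with *E. coli* (edgeR with Benjamini-Hochberg, adjusted p = 1.29e-08) and by 2.05 with both stimuli. *Cd36*, a lipid receptor, rose by 1.05 with IFN-γ and fell by 1.77 with IL-4 (edgeR with Benjamini-Hochberg, adjusted p = 0.000223). *Ly86*, the partner of CD180, fell by 0.90 with IFN-γ.

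Of 19 tested adaptors and proximal kinases, 4 rose with *E. coli*, 6 rose and 1 fell with IFN-γ, 12 rose and 1 fell with both stimuli and 1 fell with IL-4 (median 0.27, 0.34, 0.47 and -0.06). The rises with *E. coli* lie nearer to the share of all genes (13.5%) than those with both stimuli (23.9%). *Irak2* rose with *E. coli* (log2 fold change 0.74), *Traf6* with both stimuli (1.00), and *Ikbkg* with IFN-γ (0.85), while *Ikbkg* fell by 1.09 with IL-4. *Irak4* fell by 0.63 with IFN-γ and by 0.82 with both. Of 11 tested transcription factors, 4 rose and 3 fell with *E. coli*, 6 rose and 2 fell with IFN-γ, 7 rose and 1 fell with both and 2 rose with IL-4 (median 0.07, 0.53, 0.61 and -0.16), where 13.5%, 15.6%, 23.9% and 5.97% of all genes rose. *Nfkb2* rose with *E. coli* (0.94), *Atf3* with IFN-γ (2.52) and both stimuli (3.38), and *Rel* with IL-4 (0.73), whereas *Fos* fell by 1.81 with *E. coli*.

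Of 19 tested inhibitors, 11 rose with *E. coli*, 11 with IFN-γ, 14 with both stimuli and 3 with IL-4 (median 0.47, 0.53, 1.24 and 0.03), where 13.5%, 15.6%, 23.9% and 5.97% of all genes rose. *Irak3*, which restrains MyD88 signalling, rose with *E. coli* (log2 fold change 2.48) and with both stimuli (3.16), *Bcl3* rose with IFN-γ (1.49), and *Socs1* rose with IL-4 (1.52). Of 15 tested other sensors of bacteria (16 in the IL-4 set), 4 rose and 5 fell with *E. coli*, 10 rose and 1 fell with IFN-γ, 9 rose and 2 fell with both, and 4 rose and 5 fell with IL-4 (median -0.12, 0.69, 1.09 and 0.31), where 16.7%, 16.0%, 25.2% and 4.35% of all genes fell. *Trem1* rose in each of the first 3 comparisons (log2 fold change 4.73, 1.60 and 3.84), *Pglyrp1* fell (-1.99, -2.29 and -3.36), and *Marco* fell by 2.77 and *Ripk2* rose (1.55) with IL-4.

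The cells were checked against lists of marker genes, whose counts of calls are to be read against the shares of all tested genes given for the pathway lists. The 11 eosinophil markers, led by *Alox15* or *Ccr3* in each group and with none at 0 throughout a group, summed to 4033, 5353 and 4201 normalized CPM without stimulus (a to c) and to 3876, 3435 and 3824 given *E. coli*. IFN-γ libraries had 4349.5, 3878 and 4726, and those with both stimuli 3668, 3254 and 3488. The *E. coli* group and the group with both stimuli lay below the unstimulated one, and the IFN-γ group overlapped with it. In a to c the most abundant of these markers were *Alox15* (mean 1608 normalized CPM) and *Ccr3* (1421). Library b had the fewest counts on genes of a to c (1562034) and the highest sum (5353). Whether the ceiling on counts considered for *Cd14* held down the sums of the first set was not tested. The sums of the IL-4 set were 5419.9, 6406 and 5509 unstimulated and 5266, 5476 and 5362 with IL-4, which overlapped. Of 7 tested in the first set, 2 rose and 2 fell with *E. coli*, 1 rose and 4 fell with IFN-γ, and 2 rose and 4 fell with both. The falls with IFN-γ and with both stimuli lie further above the shares of all genes (16.0% and 25.2%) than those with *E. coli* (16.7%). Of 11 tested in the IL-4 set, 4 rose and 1 fell, where 5.97% and 4.35% of all genes did.

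The 15 macrophage markers, of which *Adgre1* is also made by eosinophils, summed to 3500.3, 3409 and 3498 without stimulus (a to c), 2529, 2357 and 3773 given *E. coli*, 4357, 4122 and 4552 given IFN-γ, and 3800.4, 4101 and 4984 with both stimuli. They were led by *Adgre1* in each of these groups. In the IL-4 set they summed to 6337, 6274 and 7487 unstimulated and 4861, 4639 and 5607 with IL-4, led by *Apoe*. None of the macrophage markers was at 0 in all libraries of a group. Without stimulus their sum averaged 3469 (a to c) and 6699 (d to f), of which *Adgre1* made 887 and 735. The B cell list averaged 266 and 72.2 there, and the T cell list 7.23 and 4.89. The study describes the remaining cells as mainly lymphocytes, while in these sums the macrophage list stood above both lymphocyte lists. How much of the macrophage sum eosinophils made was not tested. Of the 15 macrophage markers, 6 fell with *E. coli*, 4 rose and 1 fell with IFN-γ, 3 rose and 4 fell with both stimuli, and 7 fell with IL-4. Among all genes 16.7% fell with *E. coli*, 15.6% rose and 16.0% fell with IFN-γ, and 4.35% fell with IL-4. The falls with *E. coli* and with IL-4 lie well above these shares, the counts with IFN-γ do so less or lie below them, and those with both stimuli lie near the shares of all genes (23.9% higher and 25.2% lower).

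The macrophage sum was lower than without stimulus in 2 of the 3 *E. coli* libraries, where *Tlr4* and *Cd14* rose and *Tlr7* fell, and in each IL-4 library, where *Tlr2*, *Tlr6* and *Tlr13* fell. It was higher in each IFN-γ library, where *Tlr6*, *Tlr13* and *Cd14* rose and *Tlr2* fell. It was also higher in each library with both stimuli, where *Tlr1*, *Tlr6* and *Cd14* rose and *Tlr7* fell. The third *E. coli* library had the highest level of its group for each of the 8 tested genes except *Tlr13*, and the highest sum for each marker list except that of eosinophils.

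The 11 neutrophil markers, led by *Retnlg*, summed to 594.6, 716.2 and 581.5 normalized CPM without stimulus (a to c), and *Ltf*, *Elane*, *Mpo* or *Ngp* was at 0 in each group of the first set. They summed to 472.7, 453.6 and 515.8 given *E. coli*, 712, 676 and 774.7 given IFN-γ, and 555.7, 619.2 and 624.7 with both. Only the *E. coli* group lay apart from the unstimulated one, below it, and *Retnlg* carried this, with a mean of 285.0 against 580.0. Of 5 markers tested, 3 rose and 1 fell with *E. coli* and with IFN-γ, and 3 rose and 2 fell with both. The median log2 fold change was 1.58 with *E. coli*, and *S100a8* rose by 3.06. Neutrophil sums of the IL-4 set were 1996, 1946 and 1689 unstimulated and 806.4, 834.4 and 774.1 with IL-4, all lower. *Retnlg* made up 98.4% of the unstimulated sum and went from a mean of 1847 to 751.5, while *Cxcr2* went from 3.74 to 31.9. Of 6 tested there, 1 rose and 2 fell (median log2 fold change -0.16).

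The T cell list, of 8 markers, summed to 3.65 to 9.25 and 1.81 to 6.25, led by *Cd3d*, with at least 1 of *Cd3e*, *Cd3g*, *Cd4*, *Cd8a*, *Trac* and *Thy1* at 0 in each group. Of the stimulated groups only that given IFN-γ lay apart from its unstimulated one, below it.

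The 7 mast cell or basophil markers, led by *Tpsb2* or *Cma1* and with *Mcpt8* at 0 in 5 of the 6 groups, summed to 9.62, 8.18 and 7.38 without stimulus (a to c), 10.1, 6.64 and 34.3 given *E. coli*, 30.01, 14.3 and 12.99 given IFN-γ, and 36.3, 71.8 and 66.1 with both. The IFN-γ group and the group with both stimuli lay above the unstimulated one, and *Tlr6* and *Cd14* rose in each, with *Tlr13* up and *Tlr2* down given IFN-γ, and *Tlr1* up and *Tlr7* down given both. For the IL-4 set the sums were 6.60 to 8.57 unstimulated and 8.11 to 20.7 with IL-4, which overlapped. Of 2 markers tested, 1 rose with IFN-γ and 2 with both stimuli.

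The 6 dendritic cell markers, led by *Ccr7* or *Xcr1*, summed to 20.7, 25.2 and 21.3 without stimulus (a to c), 7.70, 13.3 and 15.7 given *E. coli*, 38.9, 24.4 and 24.03 given IFN-γ, and 30.5, 42.4 and 26.8 with both. *Clec9a* was at 0 given *E. coli* and *Siglech* in both groups of the IL-4 set. The *E. coli* group, in which *Tlr7* fell and *Tlr4* and *Cd14* rose, lay below the unstimulated one, the group with both stimuli lay above it, and the IFN-γ group overlapped with it. The sums for IL-4 were 9.40 to 15.98 unstimulated and 12.9 to 21.9 with IL-4, which overlapped. The 1 marker tested in the first set, *Ccr7*, fell with *E. coli*, rose with both and was called higher in the interaction. Of 3 tested in the IL-4 set, 1 rose (median log2 fold change 0.60), where 5.97% of all genes did.

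The 7 B cell markers, of which none was at 0 in all libraries of a group, summed to 309.7, 302.7 and 185.8 normalized CPM without stimulus (a to c), led by *Ighm*, and to 56.3, 68.7 and 120.1 given *E. coli*. IFN-γ libraries had 162.3, 102.3 and 83.8, and those with both stimuli 176.3, 199.7 and 229.2, led by *Igkc*. The *E. coli* and IFN-γ groups lay below the unstimulated one, and the group with both stimuli overlapped with it. Of 6 markers tested, 6 fell with *E. coli* and 5 with IFN-γ, where 16.7% and 16.0% of all genes fell, and the median log2 fold change was -1.76, -1.24 and, for both stimuli, -0.38. In the interaction 6 were called higher (median 2.58), as were *Tlr1* and 2.58% of all genes. For IL-4 they summed to 56.97, 55.3 and 104.5 unstimulated and 121.8, 111.2 and 146.1 with IL-4, and 3 of 5 tested rose, against 5.97% of all genes. The B cell sums were thus low with *E. coli*, where *Tlr7* and *Cd180* fell and *Tlr4* and *Cd14* rose. They were also low with IFN-γ, where *Tlr2* fell and *Tlr6*, *Tlr13* and *Cd14* rose. With both stimuli, where *Tlr7* and *Cd180* also fell and *Tlr1*, *Tlr6* and *Cd14* rose, they overlapped with the unstimulated sums. With IL-4, where *Tlr2*, *Tlr6* and *Tlr13* fell, every B cell sum lay above the unstimulated ones. The part of other cells in the results of the receptors was not tested.

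Promoter sequences of 300 bases, from 250 before to 50 after a gene's start, were taken from a table of RefSeq promoters (GRCm38.p6), in which 6 of the 10 genes had an entry. They were searched on both strands for GAS (TTC, any 3 bases, GAA), for the ISRE core (GAAA, any 2 bases, GAAA) and for the NF-κB consensus. Of 32851 promoters, 8.30% held a GAS, 3.44% an ISRE core and 8.46% an NF-κB match. Both *Tlr6* windows are shown because *Tlr6* rose most with IFN-γ among the 10 genes, and the *Tlr2* window because it held 3 matches. Capitals mark the matches, which on the minus strand are shown as the printed strand reads. The windows are chr5:64959117-64959416 (window 1) and chr5:64959999-64960298 (window 2) for *Tlr6* and chr3:83841559-83841858 for *Tlr2*, each given 5′ to 3′ on the minus strand, along the gene.
Tlr6 window 1: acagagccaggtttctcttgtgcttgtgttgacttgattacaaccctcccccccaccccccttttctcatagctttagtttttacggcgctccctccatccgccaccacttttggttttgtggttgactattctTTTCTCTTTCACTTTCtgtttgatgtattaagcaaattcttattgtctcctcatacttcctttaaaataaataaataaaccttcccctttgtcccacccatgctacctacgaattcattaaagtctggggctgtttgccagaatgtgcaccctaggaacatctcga
Tlr6 window 2: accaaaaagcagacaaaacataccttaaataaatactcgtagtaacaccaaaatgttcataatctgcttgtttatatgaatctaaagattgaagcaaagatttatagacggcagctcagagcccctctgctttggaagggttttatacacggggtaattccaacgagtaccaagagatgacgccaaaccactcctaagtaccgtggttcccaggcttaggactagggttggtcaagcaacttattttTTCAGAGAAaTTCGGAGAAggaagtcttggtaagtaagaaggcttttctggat
Tlr2: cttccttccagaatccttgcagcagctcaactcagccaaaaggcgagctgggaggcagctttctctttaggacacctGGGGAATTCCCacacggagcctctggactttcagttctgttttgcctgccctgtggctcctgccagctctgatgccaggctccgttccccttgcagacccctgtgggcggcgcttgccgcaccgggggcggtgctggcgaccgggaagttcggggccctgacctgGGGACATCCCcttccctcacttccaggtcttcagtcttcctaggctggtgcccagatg

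In *Tlr6*, window 1 held 2 overlapping ISRE core matches and window 2 held 2 GAS matches. The *Tlr2* window held 3 NF-κB matches, of which 2 overlap. Of the other genes in that table, *Tlr1* held 1 GAS match in 1 of its windows, and *Tlr5*, *Tlr9* and *Tlr13* held none of these letters. A match is a description of letters and was not tested as a site.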

How the data were processed

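Counts per Ensembl gene were deposited by the authors, not normalized. Their methods name CEL-Seq2 with 2 ng RNA, alignment with TopHat2 2.1.0 to GRCm38 and counting with HTSeq 0.6.1. The labels also name an RNA-Seq run, fastp 0.20.1 and STAR 2.7.2a without stating for which libraries, and no source used here states if molecular identifiers were collapsed. The highest count of a gene was at most 4096 in each library of the first set, and 87377 to 191131 in the others, so the sets may differ in unit and were fitted apart. Counts on no gene (18.9% to 37.6% in the first set) were left out.

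The tools were R 4.3.3, edgeR 4.0.16 and DESeq2 1.42.0. Genes passing filterByExpr were normalized by TMM, with library sizes over all genes, and tested with quasi-likelihood models, 1 for 12 libraries and 1 for 6. The fit was tried on simulated data for *E. coli* or IL-4 against unstimulated cells, with 6 libraries each. The model of 12 libraries and the interaction were not tried in this way. Standard errors come from the F statistic and are approximate. Spread between replicates exceeded counting error (chi-square per gene 1.59 to 21.4). Unstimulated library e stood apart, at 21.4 against d and 19.8 against f. The other pairs of replicates in the IL-4 set gave 3.51 to 7.17. Without library e 1394 genes were called with IL-4, against 1089 with it. Positions are from GENCODE M21. Copies were searched with BLAST 2.17.0 in its transcripts.

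Genes named are the 10 receptors and co-receptors, the gene with the largest called rise and fall of each pathway list per stimulus, and the 3 genes most like each receptor in pattern, and not each is described. Markers are named as the most abundant of their list, as being at 0, as the only one tested or, for neutrophils, as the largest called rise or fall. The members and lists were chosen with earlier results of these data known. Alternatives were DESeq2's size factors, DESeq2, no filter, a 2-fold change, leaving out each library, only the 6 libraries compared, the replicate number as a block and plain CPM. Chosen after seeing the data were a ceiling correction and library sizes summed again after the filter. The latter was for a time the main setting, taken up because it matched counts of called genes in earlier results. It was then withdrawn for the setting first used, and is given only as an alternative.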

Additional observations from a re-analysis of the deposited data

Results flagged for a closer look

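The effect of *E. coli* on *Tlr4* differed between eosinophils with and without IFN-γ, with an interaction of -1.58 on the log2 scale (edgeR with Benjamini-Hochberg, adjusted p = 0.000792). Leaving out any 1 of the 12 libraries gave -1.70 to -1.48, with an adjusted p of 0.00104 to 0.00432.

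For *Tlr1* the effect of *E. coli* also differed with and without IFN-γ, by 1.76 on the log2 scale (edgeR with Benjamini-Hochberg, adjusted p = 0.0370). Leaving out 1 library at a time gave 1.55 to 1.97, with an adjusted p of 0.0209 to 0.136, and DESeq2 gave 1.72 with an adjusted p of 0.0991. Groups of 3 libraries were not tested for libraries far from the others.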

How the results depend on the processing

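Of the values of single genes under the alternatives, 692 kept their direction and side of the threshold, 46 no longer passed it, 6 newly passed it and 20 changed direction. The cause of each change was not tested, except that a 2-fold threshold by construction calls fewer genes.

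Requiring a 2-fold change left 1023 genes called with *E. coli*, 1186 with IFN-γ, 2210 with both, 403 for both against IFN-γ, 1325 for both against *E. coli*, 245 for the interaction and 478 with IL-4. Of the 10 receptors and co-receptors, 0 were then called higher with *E. coli* and 1 with IFN-γ. For both against IFN-γ it called 1 higher and 0 lower, and with IL-4 1 lower. DESeq2 called 0 lower with *E. coli*, 0 lower with IFN-γ and 0 higher for the interaction. Without a filter, 2 were lower with both stimuli, and 1634 genes were called with IL-4.

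With plain CPM, *Tlr6* averaged 12.7 with *E. coli* (11.9 normalized) and 46.7 with both stimuli (51.4). For both against IFN-γ the log2 difference of *Tlr6* (0.03) was -0.0029 without a filter and -0.00035 in a fit of the 6 libraries compared, and the interaction of *Ly96* (0.06) was -0.0069 without a filter.

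Leaving out each library in turn gave 1 to 2 receptors and co-receptors higher and 0 to 1 lower with *E. coli*, 0 to 1 lower with IFN-γ, 0 to 2 lower with both, 1 to 2 lower for both against IFN-γ, 0 to 1 higher for the interaction and 1 to 4 lower with IL-4. All genes called were 739 to 1122 for both against IFN-γ, 266 to 562 for the interaction and 483 to 1394 with IL-4. With *E. coli* the log2 difference was -0.65 to 0.0092 for *Tlr2*, -0.24 to 0.18 for *Tlr6* and -0.20 to 0.21 for *Tlr13*. With IFN-γ it was -0.027 to 0.26 for *Ly96*. For both it was -0.031 to 0.099 for *Tlr6* against IFN-γ and -0.66 to 0.49 for *Tlr7* against *E. coli*. The interaction was -0.15 to 0.26 for *Tlr6*, -0.099 to 0.18 for *Ly96* and -0.024 to 0.53 for *Cd14*. None of these differences was called.

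Same-numbered libraries did not all correlate above 0.1 (-0.02 to 0.17 between *E. coli* and IFN-γ, 0.07 to 0.16 between *E. coli* and both, -0.04 to 0.33 between IFN-γ and both), so the numbers were not read as pairs. With the replicate number as a block, 1418 genes were called for both against IFN-γ (1210 without the block) and 3142 for both against *E. coli* (3237), with the same numbers of receptors and co-receptors. After library sizes were summed again, an alternative chosen after seeing the data, each receptor or co-receptor kept its side of the threshold. Counts were low for *Tlr7* (1 to 41 in the first set), *Tlr2* (4 to 59) and *Tlr1* (8 to 32), which limits the precision of their differences, and differences of *Tlr5* and *Tlr9* were not detectable.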
